A study of Homo sapiens with 12 samples.

Results

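The 10 genes described here encode subunits of the transcription factor AP-1. They were chosen by name, with no measured value in the rule: the FOS family (FOS, FOSB, FOSL1, FOSL2), the JUN family (JUN, JUNB, JUND) and the related ATF3, ATF2 and BATF3. All 10 were found among 60617 gene identifiers, and all 10 passed the filter on low counts that left 21581 genes to test. RNA was sequenced from A549 cells, a single human lung adenocarcinoma line, 24 hours after siRNA transfection. The 4 libraries of siCo came from cells with control siRNA. The groups siYAP/TAZ#1 and siYAP/TAZ#2 had 4 libraries each, from cells with either of 2 siRNA combinations against YAP and TAZ, the coactivators that the Hippo pathway holds in check. The replicates are described as biological.

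AP-1 proteins bind DNA as pairs held together by a leucine zipper. A FOS protein cannot pair with another FOS protein and needs a JUN or ATF partner, whereas JUN proteins can also pair with each other. FOS-JUN pairs prefer the AP-1 element TGANTCA, and pairs with ATF2 or ATF3 prefer the related cAMP response element TGACGTCA. FOS, FOSB, JUN, JUNB and ATF3 are induced rapidly by growth factors or stress, whereas FOSL1 and FOSL2 follow later and are kept up in many carcinoma lines with active RAS signalling. YAP and TAZ reach DNA through TEAD factors, and AP-1 and TEAD elements often stand together in enhancers.

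Because ATF2 pairs act on the cAMP response element, the bases around it are printed for the members that carry it or a form 1 base off. The RefSeq promoter table (GRCh38.p14) gave 8 windows for 7 of 10 members, each running from 250 bases before to 50 after a start. FOSL1, ATF2 and BATF3 had no window. Windows were searched on both strands for TGANTCA, TGACGTCA and its 1-base variants, the TEAD element GGAATG and the CArG box of serum response factor. In each line below, capitals mark the element, and lines run 5′ to 3′ on the gene's strand. They are 30 bases long where a GENCODE v29 exon reaches into the stretch, and 56 bases otherwise. Distances upstream are counted from the start in the RefSeq table. The JUN stretch and both FOSL2 stretches lie inside the gene as GENCODE v29 places it.
JUND, 200 bases upstream, chr19:18281791-18281846, minus strand: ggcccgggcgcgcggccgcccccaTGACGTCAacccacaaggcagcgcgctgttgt
JUND, 89 bases upstream, chr19:18281680-18281735, minus strand: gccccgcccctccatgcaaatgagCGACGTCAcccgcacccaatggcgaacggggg
JUN, 67 bases upstream, chr1:58784096-58784125, minus strand: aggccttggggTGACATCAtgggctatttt
ATF3, first of its 2 windows, 123 bases upstream, chr1:212565260-212565315, plus strand: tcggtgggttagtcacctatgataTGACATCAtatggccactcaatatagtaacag
FOSB, 60 bases upstream, chr19:45467912-45467967, plus strand: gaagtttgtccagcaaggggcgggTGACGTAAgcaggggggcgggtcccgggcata
FOSL2, 204 bases upstream, chr2:28392630-28392685, plus strand: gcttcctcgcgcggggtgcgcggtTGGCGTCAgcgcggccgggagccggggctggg
FOSL2, 66 bases upstream, chr2:28392781-28392810, plus strand: gagtctggggtTGACGTGAgtgaatccaca
JUN and ATF3 carried the same 8 bases, TGACATCA, and only JUND carried the exact element. FOSL2 also held the AP-1 element TGACTCA, which began at base 5 after its start. The FOS and JUNB windows held none of the elements searched, and no member window held GGAATG or a CArG box. Over 35116 windows of the same length, the exact cAMP response element stood in 1.85%, a form 1 base off in 10.2%, TGANTCA in 7.71%, GGAATG in 14.0% and the CArG box in 1.29%. These are matches of letters and do not show that a factor binds there.

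Library totals ran from 29.6 to 38.3 (in units of 1e6 estimated counts). The targeted genes were low in every treated library: YAP1 kept 15.5% and 14.3% of its siCo level with siYAP/TAZ#1 and siYAP/TAZ#2, and WWTR1, the gene of TAZ, kept 13.7% and 13.5%. Replicate 1 of siYAP/TAZ#2 stood apart from its group in a chi-square comparison of counts. Its value per degree of freedom was 48.41 to 76.74 against the other 3, and values among those 3 were 7.6 to 19.72. Replicate 4 of siYAP/TAZ#1 stood apart too, at 25.55 to 41.48 against the other 3 of its group, with 3.66 to 6.32 among those. In siCo the values ran from 5.81 to 31.83, the highest between replicates 3 and 4. Markers of simple epithelium (EPCAM, KRT8, KRT18, KRT19, CDH1) summed to 3270 to 3630 CPM in siCo (CPM are counts per 1e6 of library size, scaled by TMM factors), and CDKN2A, deleted in A549, reached at most 0.0285 CPM. Markers of alveolar type 2 cells (SFTPC, SFTPB, NKX2-1) summed to at most 0.376 CPM in any library, so these transcripts were nearly absent. Of the other cell types, endothelial markers summed to 0.347 to 1.12 CPM over all libraries, leukocyte markers to 20 to 27.4 (nearly all CD68) and fibroblast markers to 100 to 170 (nearly all COL1A1).

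The AP-1 transcripts did not move as a block. FOSL1, FOSL2 and JUN fell with both combinations, FOS and ATF2 rose with both, and JUNB and JUND were not called with either. JUND was, however, called as higher with siYAP/TAZ#1 in most alternative fits that changed the scale, filter or method. It was called in only 2 of the 12 fits that left out a library. With siYAP/TAZ#1, 3 of 10 members were lower and 3 higher (FOS, ATF2 and ATF3). Of all genes tested, 18.5% were lower and 16.4% higher there. With siYAP/TAZ#2, 3 of 10 were lower and 4 higher (FOS, FOSB, ATF2 and BATF3), beside 19.2% and 19.0% of all genes. A call means an adjusted p under 0.05 in edgeR's quasi-likelihood test with Benjamini-Hochberg adjustment over all genes tested. Adding a log2 change of at least 1 left FOSL1 lower and FOS higher with each combination. That rule called 1.47% of all genes lower and 3.94% higher with siYAP/TAZ#1, and 1.87% and 5.0% with siYAP/TAZ#2. The median log2 change of all genes was 0.02 with each combination. Both comparisons used the same siCo libraries. In bulk RNA, fewer cells with a transcript and less of it per cell cannot be told apart.

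**Figure D1:**
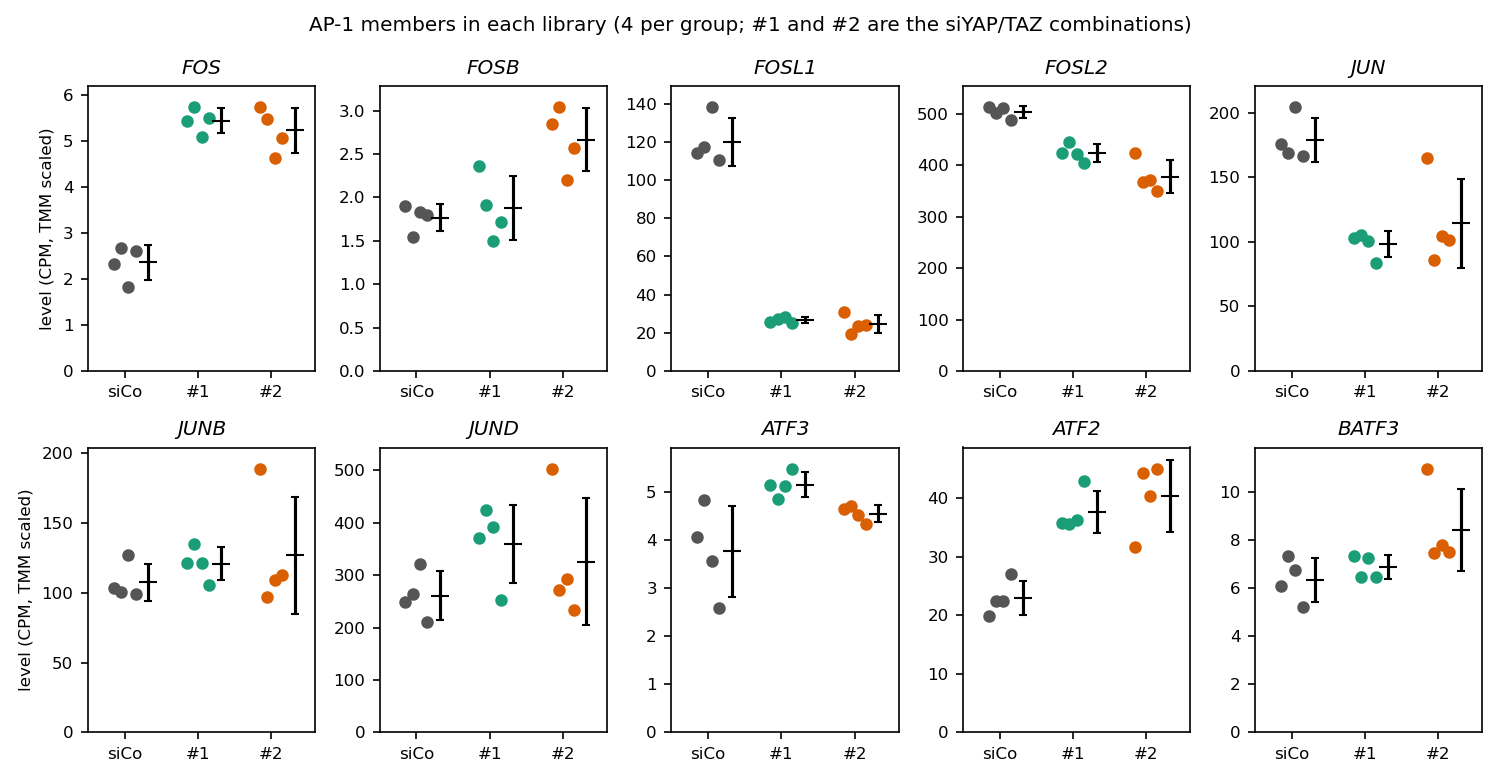
Level of each AP-1 member (vertical axis, CPM after TMM scaling, starting at 0) in the 4 libraries of siCo, siYAP/TAZ#1 and siYAP/TAZ#2. Points are libraries in order of replicate number, and the bar beside them is mean ± SD. FOSL1 falls from 110.5 CPM or more to 30.78 or less, FOS rises from at most 2.68 to at least 4.648, and JUNB, JUND and BATF3 show 1 high library in siYAP/TAZ#2.

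FOSL1 encodes FRA-1, a FOS protein without the strong activation domain of FOS, and is a gene of late growth factor responses and of invasive carcinoma cells. It lies on chromosome 11 (chr11:65892049-65900573, minus strand, GENCODE v29 on GRCh38, as for all positions of genes here). FOSL1 stood at 114.1, 117.3, 138.2 and 110.5 CPM in the siCo libraries. With siYAP/TAZ#1 the values were 25.51, 27.38, 28.34 and 24.94 CPM, and with siYAP/TAZ#2 they were 30.78, 19.6, 23.29 and 23.86. Every treated library lay far below every siCo library, and the treated groups overlapped each other. The log2 change was -2.18 ± 0.11 (SE) with siYAP/TAZ#1 and -2.30 ± 0.11 with siYAP/TAZ#2, or 4.52-fold and 4.92-fold lower, at adjusted p = 5.92e-10 and 2.88e-10. An exact permutation test gave p = 0.0286 in each case, the smallest that 4 against 4 libraries allow. FOSL1 had the largest change among the members, and it was called with each library left out in turn.

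FOSL2 encodes FRA-2, the closest relative of FRA-1, and lies at chr2:28392448-28417312 on the plus strand. FOSL2 stood at 513.7, 501.4, 512.3 and 488.7 CPM in siCo. Its level was 425.3, 446, 422.4 and 403.9 CPM with siYAP/TAZ#1, and 423.9, 368.1, 370.9 and 349.4 CPM with siYAP/TAZ#2. No treated library reached the siCo range on this scale, but the change was small: -0.25 ± 0.061 (adjusted p = 0.00437) and -0.41 ± 0.061 (adjusted p = 4.93e-05), which left 84.2% and 75.0%. Direction depended on the scale. On the authors' TPM, as log2(TPM + 1), the difference was 0.14 with siYAP/TAZ#1 and 0.07 with siYAP/TAZ#2, not called in limma (adjusted p = 0.670 and 0.816). The median of all genes in that fit was 0.26 and 0.33, so FOSL2 lay below the median on this scale too. With library size alone as scale, the siYAP/TAZ#1 value was -0.07 (adjusted p = 0.242 in edgeR). GENCODE v29 has antisense FLJ31356 over 2225 bases of FOSL2, with no shared exonic base.

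FOS, the founding member and a classic immediate early gene, lies at chr14:75278774-75282230 on the plus strand. It was scarce in siCo, at 2.325, 2.68, 1.838 and 2.618 CPM, from 49 to 92 estimated counts a library. FOS then stood at 5.449, 5.746, 5.098 and 5.51 CPM with siYAP/TAZ#1 and at 5.746, 5.488, 4.648 and 5.072 CPM with siYAP/TAZ#2. No treated library overlapped a siCo library. The log2 change was 1.20 ± 0.13 (adjusted p = 1.67e-06) and 1.14 ± 0.13 (adjusted p = 2.62e-06), or 2.29-fold and 2.20-fold higher. FOS thus moved opposite to FOSL1, and it stayed far below FOSL1 in level after depletion (3.85 against 16.5 TPM with siYAP/TAZ#1, 4.82 against 16.0 with siYAP/TAZ#2).

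FOSB, an immediate early gene with a short form that lacks the activation domain, was the scarcest FOS transcript. FOSB stood at 1.897, 1.54, 1.838 and 1.793 CPM in siCo, from 49.31 to 62.54 estimated counts. Its values were 2.364, 1.915, 1.499 and 1.715 CPM with siYAP/TAZ#1 and 2.842, 3.042, 2.203 and 2.567 CPM with siYAP/TAZ#2. Only siYAP/TAZ#2 was clear of siCo: the log2 change there was 0.59 ± 0.17 (adjusted p = 0.0106), and it was 0.08 ± 0.17 (adjusted p = 0.761) with siYAP/TAZ#1. On TPM the siYAP/TAZ#2 call was lost in all 3 limma fits (adjusted p = 0.0866, 0.121 and 0.0633). FOSB was also the only member called between the combinations, at -0.51 ± 0.17 for siYAP/TAZ#1 against siYAP/TAZ#2 and adjusted p = 0.0498, where 8.2% of all genes were lower and 6.92% higher. The call was lost in 9 of the 12 fits that left out a library, with adjusted p from 0.0191 to 0.156 over all 12. The gene (chr19:45467995-45475179, plus strand) lies wholly inside ERCC1 on the opposite strand, over 7185 bases with 0 exonic bases in common. ERCC1 changed by -0.19 and -0.18 (adjusted p = 0.0501 and 0.0589).

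In the JUN family 1 member fell and the others were not called. JUN encodes c-Jun, the partner that FOS proteins use and the substrate of JUN N-terminal kinase, and lies at chr1:58780788-58784327 on the minus strand. JUN stood at 175.5, 169.1, 204.3 and 166.6 CPM in siCo. Levels were 103.2, 105.5, 100.6 and 83.92 CPM with siYAP/TAZ#1, and 164.6, 86.28, 104.6 and 101.4 CPM with siYAP/TAZ#2. The 164.6 CPM belongs to replicate 1 of siYAP/TAZ#2, just below the lowest siCo library, and the other 3 of that group lay near siYAP/TAZ#1. The log2 change was -0.86 ± 0.15 (adjusted p = 2.62e-04) and -0.65 ± 0.15 (adjusted p = 0.00244), which left 55.0% and 63.9%. Without that library the siYAP/TAZ#2 value was -0.87. On TPM the JUN values were -0.48 (adjusted p = 0.1 in limma) and -0.24 (adjusted p = 0.35), both below the main values in size.

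JUNB, an immediate early gene that activates less strongly than JUN, is an intronless gene at chr19:12791496-12793315 on the plus strand. JUNB read 103.2, 100.2, 127.3 and 99.33 CPM in siCo. It read 121.3, 135.1, 121.6 and 105.7 CPM with siYAP/TAZ#1 and 188.9, 97.05, 108.8 and 112.5 CPM with siYAP/TAZ#2. Groups overlapped, and the changes were 0.17 ± 0.16 (adjusted p = 0.461) and 0.24 ± 0.16 (adjusted p = 0.274). Without replicate 1 of siYAP/TAZ#2 the second value was -0.01. JUNB lies inside HOOK2 on the opposite strand, and 259 of its 1820 exonic bases are exonic in HOOK2 too, which changed by 0.32 (adjusted p = 0.0903) and 0.48 (adjusted p = 0.0123). Library strandedness is not given in the sources used here, so reads from the shared bases cannot be told apart.

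JUND, the JUN gene expressed steadily in resting cells, lies at chr19:18279760-18281622 on the minus strand. JUND read 249.1, 263.7, 321.7 and 210.5 CPM in siCo. Values were 370.5, 423.7, 392.4 and 253.2 CPM with siYAP/TAZ#1, and 503.6, 271.4, 293.3 and 233.6 CPM with siYAP/TAZ#2. Here 3 of 4 siYAP/TAZ#1 libraries lay above every siCo library, and replicate 4 did not. The changes were 0.46 ± 0.21 (adjusted p = 0.0955) and 0.32 ± 0.21 (adjusted p = 0.252), the widest errors of any member. Without replicate 1 of siYAP/TAZ#2 the values were 0.46 (adjusted p = 0.00733) and 0.03 (adjusted p = 0.881). Without replicate 4 of siYAP/TAZ#1 the first value was 0.60 (adjusted p = 0.0338), and JUND was called with siYAP/TAZ#1 in these 2 of the 12 fits that left out a library. JUND also passed in other fits. On log2(TPM + 1) it was 0.80 and 0.77 (adjusted p = 0.00669 and 0.00515 in limma). All 8 treated libraries stood at 182.2 TPM or more and siCo at 140.4 or less. In edgeR it was called with siYAP/TAZ#1 under library size alone (adjusted p = 0.00967), upper quartile factors (0.0439) and no filter (0.00151). Fits of only the 2 groups compared (0.00642) and with a replicate block (0.032) called it too. DESeq2 (0.21) and a filter of 1 CPM in 4 libraries (0.0715) did not. With siYAP/TAZ#2 it was called under library size alone (0.0372) and no filter (0.0447). JUNB on TPM, like JUND, was clear of siCo, at 48.74 or more against 43.39 or less. Its difference on log2(TPM + 1) was 0.53 and 0.62 (adjusted p = 0.0741 and 0.0236 in limma). The median of all genes was also raised in that fit, at 0.26 and 0.33.

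JUNB and JUND are the members richest in G and C. The longest JUND transcript is 69.7% GC, above 99.4% of tested genes, and that of JUNB is 64.9%, above 96.2%. JUN has 56.7%, and ATF2 is lowest with 36.9%, which only 4.67% of tested genes lie below. With an offset for each library's trend with GC, an alternative added after these values were seen, JUND changed by 0.42 (adjusted p = 0.00120) and 0.20 (adjusted p = 0.0866). JUNB changed by 0.16 and 0.17 there (adjusted p = 0.0747 and 0.0567) and JUN by -0.85 and -0.66. The part of GC content in the single high library was not tested.

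Among the ATF genes, ATF2 rose with each combination. ATF2 is a partner of JUN that binds the cAMP response element and is switched on by p38 and JUN N-terminal kinases, and it lies at chr2:175072250-175168382 on the minus strand. ATF2 stood at 19.92, 22.45, 22.39 and 26.95 CPM in siCo. It reached 35.81, 35.52, 36.24 and 42.93 CPM with siYAP/TAZ#1 and 31.57, 44.32, 40.4 and 45.02 CPM with siYAP/TAZ#2. Every treated library lay above every siCo library, replicate 1 of siYAP/TAZ#2 the least. The change was 0.71 ± 0.11 (adjusted p = 1.11e-04) and 0.81 ± 0.11 (adjusted p = 2.67e-05), or 1.64-fold and 1.76-fold higher. On log2(TPM + 1) the siYAP/TAZ#1 value was 0.84, with adjusted p = 0.0524 in limma, and the TPM of siCo (up to 10.19) and siYAP/TAZ#2 (from 9.27) overlapped. The antisense AC096649.1 covers 479 bases of ATF2, of which 246 are exonic in both.

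ATF3, a stress-induced repressor and activator at chr1:212565334-212620777 on the plus strand, stood at 4.069, 4.836, 3.563 and 2.589 CPM in siCo. It read 5.132, 4.845, 5.123 and 5.482 CPM with siYAP/TAZ#1 and 4.641, 4.712, 4.513 and 4.321 CPM with siYAP/TAZ#2. The siCo libraries spread widely and reached 4.836, next to the lowest siYAP/TAZ#1 library. The change was 0.45 ± 0.15 (adjusted p = 0.0242) with siYAP/TAZ#1 and 0.27 ± 0.15 (adjusted p = 0.166) with siYAP/TAZ#2. ATF3 with siYAP/TAZ#1 was called in 8 of 12 fits with a library left out. Its adjusted p was 0.0587 and 0.0654 without replicate 3 or 4 of siCo, and 0.0502 and 0.0612 without replicate 3 or 4 of siYAP/TAZ#1. On TPM it was not called in any of the 3 limma fits (adjusted p = 0.114, 0.101 and 0.178). With siYAP/TAZ#2, ATF3 was called with library size alone (0.46, adjusted p = 0.0243) and without replicate 2 of siCo (0.42, adjusted p = 0.0279). The difference between the combinations was 0.18 (adjusted p = 0.509).

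BATF3, known as a partner of JUN in dendritic and T cells, is the nearest member to ATF3, 65.6 kb away on chromosome 1 with 1 coding gene, FAM71A, between them. It lies at chr1:212686418-212699985 on the minus strand. BATF3 stood at 6.118, 7.361, 6.751 and 5.207 CPM in siCo, at 7.352, 6.479, 7.272 and 6.466 CPM with siYAP/TAZ#1 and at 10.99, 7.456, 7.818 and 7.515 CPM with siYAP/TAZ#2. Apart from the 10.99 CPM of replicate 1, the siYAP/TAZ#2 libraries lay close above the highest siCo library. The change was 0.12 ± 0.14 (adjusted p = 0.551) and 0.41 ± 0.13 (adjusted p = 0.0240). BATF3 was not called with siYAP/TAZ#2 without replicate 1 of that group (0.27, adjusted p = 0.0572) or without replicate 1 or 4 of siCo (adjusted p = 0.0580 and 0.0790). Neither of these neighbours differed between the combinations at the threshold.

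**Figure D2:**
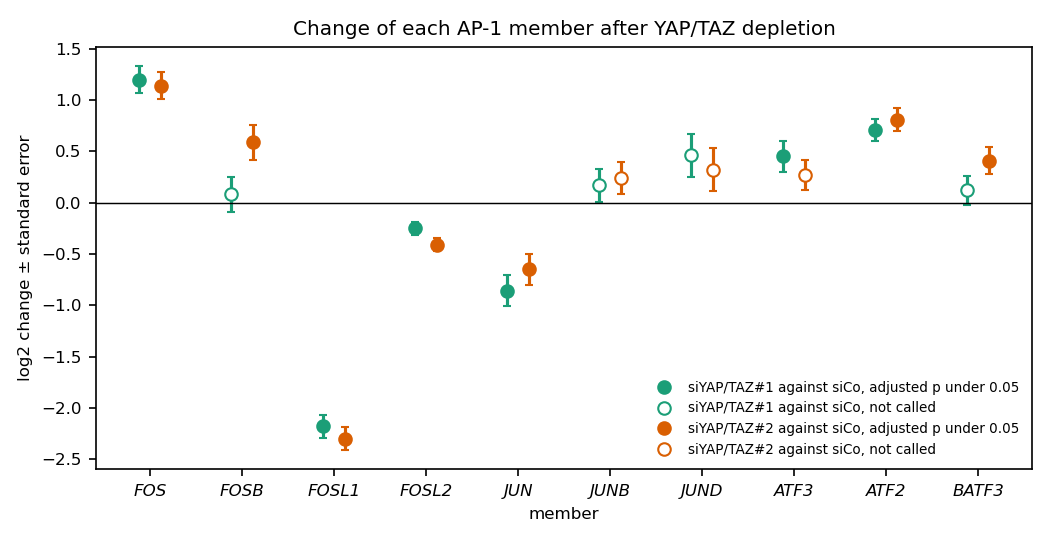
Log2 change of each member against siCo (vertical axis, log2 scale) with its standard error, for siYAP/TAZ#1 and siYAP/TAZ#2. Filled points have an adjusted p under 0.05 in edgeR's quasi-likelihood test and open points do not; FOSL1 lies near -2.2 and FOS near 1.2, and JUNB and JUND are open for both combinations.

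Levels of different genes were compared in TPM, transcripts per 1e6, which accounts for transcript length. In siCo the order of mean levels was JUND (133 TPM), FOSL1 (56.0), FOSL2 (48.7), JUNB (38.1), JUN (33.4), ATF2 (7.09), BATF3 (5.96), ATF3 (1.40), FOS (1.31) and FOSB (0.593). FOSL1 to JUN overlapped from neighbour to neighbour over libraries, although in each siCo library the order of these 4 was the same. ATF2 and BATF3, and ATF3 and FOS, were not separated either. With siYAP/TAZ#1 the order was JUND (232), JUNB (55.4), FOSL2 (54.1), JUN (23.7), FOSL1 (16.5), ATF2 (13.6), BATF3 (8.43), FOS (3.85), ATF3 (2.45) and FOSB (0.641). FOSL1 had gone from the rank below JUND to the one below JUN, and FOS from below ATF3 to above it. The siYAP/TAZ#2 order was the same, from JUND (230), JUNB (59.7), FOSL2 (51.0) and JUN (28.4) through FOSL1 (16.0), ATF2 (15.9), BATF3 (10.6) and FOS (4.82) to ATF3 (2.24) and FOSB (1.16). Neighbours that overlapped with each combination were JUNB and FOSL2, FOSL1 and ATF2, and ATF2 and BATF3, joined by FOS and ATF3 with siYAP/TAZ#1.

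Composition within a family does not depend on how libraries are scaled. FOSL1 made up 52.7% ± 2.22 (SD, n = 4) of summed FOS family TPM in siCo, from 51.0 to 55.9% by library. Its share was 22.1% ± 0.922 with siYAP/TAZ#1 and 21.8% ± 2.26 with siYAP/TAZ#2, at most 24.2% in any treated library. FOSL2 held 45.5% in siCo, 71.9% with siYAP/TAZ#1 and 69.9% with siYAP/TAZ#2. FOS went from 1.21% to 5.10% and 6.71%, with no overlap. FOSB held 0.562%, 0.867% and 1.62%, and overlapped siCo with siYAP/TAZ#1. The FOS family of A549 was thus mostly FOSL1 with FOSL2 in control cells and mostly FOSL2 after depletion. FOS and FOSB stayed minor in both.

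Within the JUN family, JUN went from 16.3% ± 0.876 (SD, n = 4) in siCo to 7.59% ± 0.40 and 8.95% ± 0.554. JUND went from 65.1% to 74.7% and 72.3%, and neither gene's treated libraries overlapped siCo. JUNB held 18.6%, 17.7% and 18.8% and overlapped. The JUN share in replicate 1 of siYAP/TAZ#2 did not stand apart as its CPM did: without that library the group's mean was 9.18%. Relative to FOS and JUN families together, the FOS family fell from a share of 34.2% (31.8 to 35.8) to 19.3% (17.7 to 22.3) and 18.8% (15.2 to 21.1).

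**Figure D3:**
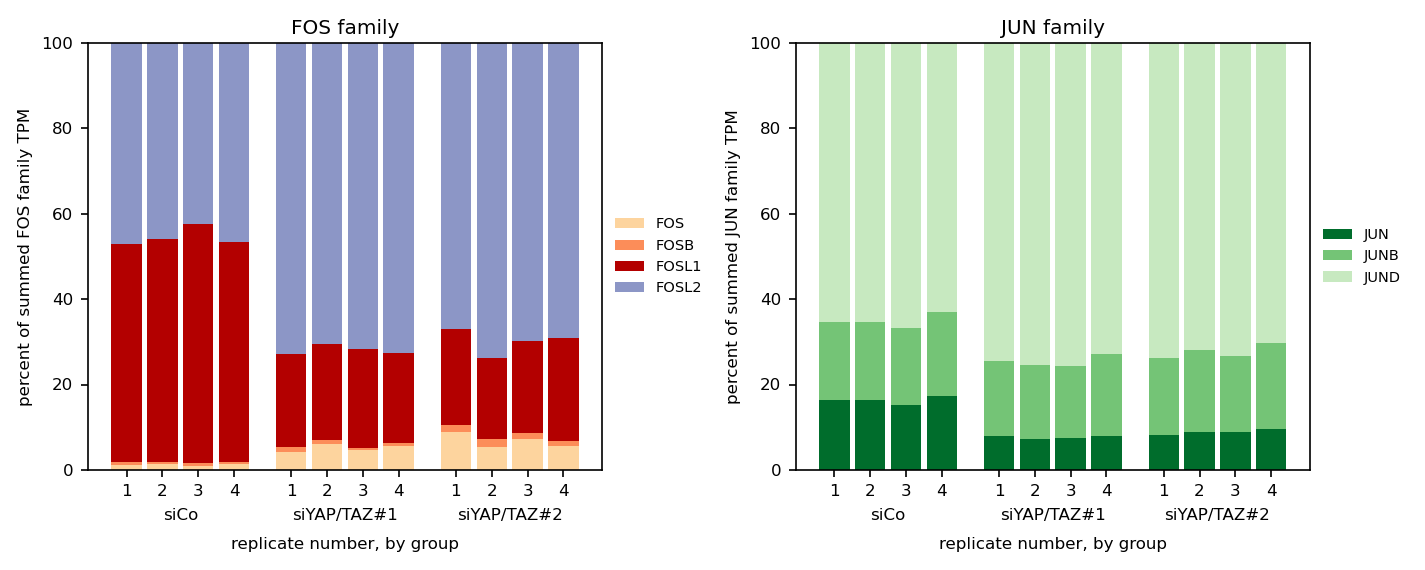
Share of each gene in the summed TPM of the FOS family (left) and the JUN family (right), in percent, with 1 bar per library and replicate numbers under the bars. FOSL1 fills about 51.0 to 55.9% of the FOS family in siCo and at most 24.2% in treated libraries, and the JUN segment is smaller in every treated library than in every siCo library.

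Summed levels, unlike shares, moved with the scale. FOS family TPM was 107 ± 13.6 (SD, n = 4) in siCo, 75.1 ± 16.1 with siYAP/TAZ#1 (overlapping siCo) and 73.0 ± 11.1 with siYAP/TAZ#2. JUN family TPM was 205 ± 15.8, 312 ± 23 and 318 ± 50.8, with no overlap. The sum of all 10 members was 326, 411 and 419 TPM, with siYAP/TAZ#2 (from 350) overlapping siCo (up to 361). Put on the TMM scale per effective length, the treated sums of the JUN family were 242 and 230, below their sums in TPM. The siCo sum on that scale is not given here, so no change from siCo is stated for it. A single entry took much of TPM: MIR3648-2 held 11.1 to 19.7% of it in 10 libraries, and in replicate 4 of both treated groups the top entry held 5.99 and 6.17%.

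FOS, FOSL1, FOSL2, JUN and ATF2 moved the same way with both combinations. For each, the 3 coding genes were found whose log2 CPM relative to siCo lay closest over the 12 libraries, by root mean square difference among 11200 genes. CCDC33, DNAH1 and the epithelial factor ELF3 were nearest to FOS, each at 0.14 log2 units. Next to FOSL1 were GADD45B (0.19), LY6K (0.20) and AMOTL2 (0.21). TTC7A (0.030), IFNGR2 (0.035) and USP22 (0.038) were nearest to FOSL2. RNF126 (0.089), TSC22D2 (0.094) and CAVIN1 (0.096) were nearest to JUN, and POC1B (0.070), SERINC5 (0.11) and RIGI (0.11) to ATF2. This measure describes likeness of pattern only.

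Of the listed genes that AP-1 is known to act on, more were lower than higher. This list, like those below, was chosen with earlier results of these data known and was not tested as a set. Of 24 textbook targets, which answer to other factors as well, 21 were tested, and 13 were lower and 3 higher with each combination. Their median log2 changes were -0.45 and -0.43, beside 0.02 for all genes, of which 18.5% and 19.2% were lower and 16.4% and 19.0% higher. The same 13 fell with both, and those with the largest common changes were the cytokines IL11 (-2.48 ± 0.15 and -1.59 ± 0.14) and IL6 (-1.91 ± 0.30 and -1.98 ± 0.31), the growth factor HBEGF (-1.25 ± 0.14 and -1.12 ± 0.14) and the receptor kinase AXL (-1.05 ± 0.072 and -1.13 ± 0.072). AXL was by far the most abundant of these, at 1170 ± 35.3 CPM (SD, n = 4) in siCo against 569 ± 35.0 and 536 ± 57.4. The 3 that rose were the matrix protein SPP1 (1.26 ± 0.085 and 0.88 ± 0.085), the prostaglandin synthase PTGS2 (1.01 ± 0.094 and 0.88 ± 0.094) and the gap junction gene GJA1 (0.33 ± 0.083 and 0.28 ± 0.084). Collagenases showed nothing to compare: MMP1, MMP3 and MMP10 did not pass the filter, and MMP9 (0.403 CPM in siCo) and MMP13 (0.246) were tested and not called.

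Other immediate early genes went both ways, with more lower than higher. Of 22 tested, 13 were lower and 3 higher with siYAP/TAZ#1, and 12 were lower and 5 higher with siYAP/TAZ#2, with medians of -0.38 and -0.30. Over all genes 18.5% were lower and 16.4% higher with siYAP/TAZ#1, and 19.2% and 19.0% with siYAP/TAZ#2. CCN1 (-2.90 ± 0.068 and -2.92 ± 0.069) and CCN2 (-3.06 ± 0.16 and -2.33 ± 0.15) are matricellular genes known as direct YAP targets. GADD45B (-1.99 ± 0.095 and -2.21 ± 0.097), a stress response gene, and the MAP kinase phosphatase DUSP1 (-1.04 ± 0.051 and -0.90 ± 0.050) also fell. Together with FOS, the orphan receptors NR4A2 (1.04 ± 0.14 and 1.23 ± 0.14) and NR4A1 (0.47 ± 0.091 and 0.44 ± 0.091) and the antiproliferative BTG2 (0.37 ± 0.080 and 0.61 ± 0.080) rose with both.

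**Figure D4:**
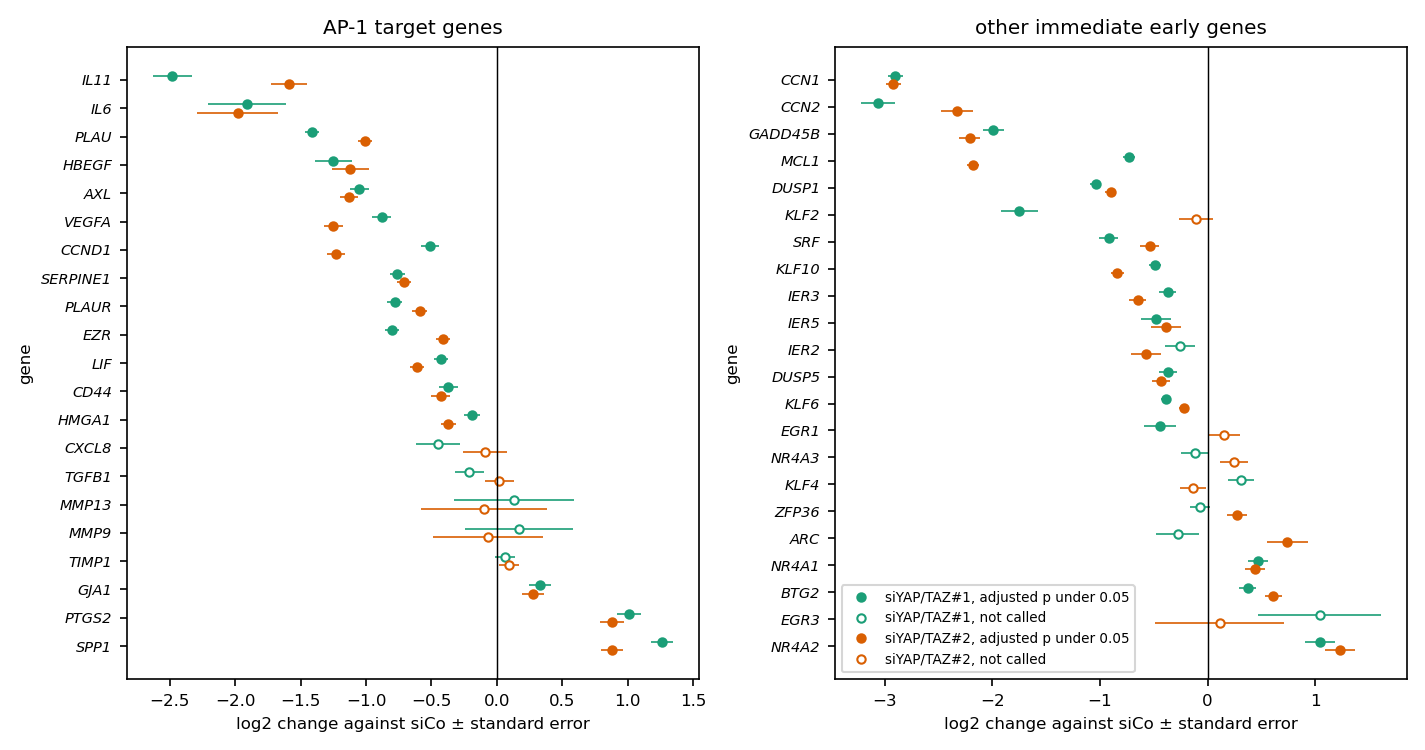
Log2 change against siCo (horizontal axis) with its standard error for 21 tested AP-1 target genes (left) and 22 tested immediate early genes (right), ordered by their mean change, with siYAP/TAZ#1 in green and siYAP/TAZ#2 in orange. Filled points have an adjusted p under 0.05; 13 target genes lie to the left of 0 as filled points for both combinations, and PTGS2, SPP1 and GJA1 to the right.

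Upstream of AP-1, 30 kinases and factors were tested; 11 were lower and 7 higher with siYAP/TAZ#1, and 12 and 9 with siYAP/TAZ#2, beside 18.5% and 16.4%, and 19.2% and 19.0%, of all genes. With library size alone these were 8 and 10, and 7 and 12, so the balance of directions depends on the scale. All genes shifted likewise there, to 1905 lower and 5876 higher of 21581 with siYAP/TAZ#1 and 2037 and 6538 with siYAP/TAZ#2. ELK3, which binds the FOS promoter beside serum response factor, fell by -1.22 ± 0.052 and -0.80 ± 0.052. SRF itself, the factor of the FOS serum response element, fell by -0.92 ± 0.086 and -0.54 ± 0.085. RPS6KA5, a nuclear kinase that phosphorylates histones at early genes (-0.88 ± 0.083 and -0.63 ± 0.082), and MAP2K1, which activates ERK (-0.61 ± 0.080 and -0.74 ± 0.080), were lower too. Higher were the p38 activator MAP2K6 (0.62 ± 0.088 and 0.75 ± 0.089), MAPK8, which encodes JUN N-terminal kinase (0.47 ± 0.093 and 0.38 ± 0.094), MAPK3 (0.29 ± 0.064 and 0.46 ± 0.064) and MAP3K5 (0.39 ± 0.070 and 0.19 ± 0.071).

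Other leucine zipper genes that can pair with AP-1 proteins went both ways. Of 25 tested, 8 were lower and 6 higher with siYAP/TAZ#1 and 10 and 5 with siYAP/TAZ#2, beside 18.5% and 16.4%, and 19.2% and 19.0%, of all genes. With library size alone the counts were 3 and 11, and 5 and 7. NFE2L3 (-0.83 ± 0.13 and -0.85 ± 0.13), MAFK (-0.73 ± 0.089 and -1.11 ± 0.090), ATF5 (-0.56 ± 0.081 and -0.77 ± 0.081) and MAFF (-0.47 ± 0.17 and -1.12 ± 0.18) fell. MAF (1.36 ± 0.23 and 1.13 ± 0.24), CEBPA (0.79 ± 0.19 and 0.92 ± 0.19) and BATF2 (0.66 ± 0.24 and 0.71 ± 0.24) rose. MAF and BATF2 were scarce, at 0.528 and 0.967 CPM in siCo, and CEBPA stood at 14.2 CPM. The BATF2 call with siYAP/TAZ#1 was near the threshold (adjusted p = 0.0429 in edgeR). JDP2, a repressor that pairs with JUN and the coding neighbour of FOS at 145.5 kb, stood at 32.8 ± 1.34, 24.7 ± 1.28 and 25.3 ± 5.63 CPM (SD, n = 4). JDP2 fell by 0.41 and 0.38 on the log2 scale (adjusted p = 0.00892 and 0.0140), but with siYAP/TAZ#2 its libraries reached 33.4 CPM and overlapped siCo (31.4 to 34.4).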

How the data were processed

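Each of 12 libraries had 2 deposited tables over 60617 Ensembl gene identifiers: estimated counts, which the authors deposited unscaled, and the authors' TPM values. The tools named in the submitters' processing notes are kallisto 0.4.6 and Trim Galore 0.6.4, with build GRCh38.p13; the step from transcripts to genes is not given in the sources used here. RNA was taken at 24 hours and sequenced by the BGISEQ-500 procedure, per the labels' protocols. Groups and replicate numbers came from sample titles.

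Estimated counts were rounded and tested with edgeR 4.0.16 (R 4.3.3): TMM scaling, filterByExpr defaults, group as the only term over all 12 libraries, the quasi-likelihood F test and Benjamini-Hochberg adjustment over 21581 genes. CPM are TMM scaled. The biological coefficient of variation was 0.105. The step was tested on simulated data. Exact permutation tests were two-sided. Alternatives were library size alone, upper quartile factors, DESeq2 1.42.0, other filters, limma 3.58.1 on log2(TPM + 1) and log2(TPM + 0.1), only the compared groups, a replicate block, each library left out, and GC offsets, which were chosen after seeing the data.

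The members, gene lists and tests were chosen with earlier results of these data known, so no list was tested. The rule for names took all members, YAP1 and WWTR1, up to 4 genes a list and direction called with both combinations, and the 3 coding genes nearest each member called with both, at 5 CPM or more. Withheld genes that the rule takes are not reported here. JDP2, ERCC1, HOOK2 and the genes of the filter and overlap sentences were named after their values were seen. P-values measure the spread between these libraries.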

Additional observations from a re-analysis of the deposited data

Results flagged for a closer look

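Of 63 groups of 4 libraries checked for a library far from the other 3 (by Dixon's criterion at 95%), 7 stood out, and chance alone gives about 1 in 20. Replicate 1 of siYAP/TAZ#2 was high for JUNB (189 CPM) and BATF3 (11 CPM). Replicate 3 of siCo was high for JUNB (127 CPM). Replicate 4 of siYAP/TAZ#1 was high for ATF2 (42.9 CPM) and, in TPM, for the summed FOS family (99.1), JUN family (346) and all 10 members (481). In that library the gene with the most TPM held 5.99%, against 13.8 to 16.5% in the other 3 of its group, and its part in the high sums was not tested.

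FOSB was the only member for which the combinations differed, by -0.51 on the log2 scale for siYAP/TAZ#1 against siYAP/TAZ#2 (adjusted p = 0.0498 in edgeR's quasi-likelihood test); the exact permutation test gave p = 0.0571.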

How the results depend on the processing

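FOS, FOSL1, JUN, JUND, ATF3, ATF2 and BATF3 kept their direction against siCo in every alternative run. With a library left out, JUND with siYAP/TAZ#2 and BATF3 with siYAP/TAZ#1 came down to 0.03. FOS and FOSL1 also kept their call in every run. Where library size alone replaced TMM, the median of all genes moved to 0.20 and 0.21, with 1905 lower and 5876 higher genes for siYAP/TAZ#1 against 3999 and 3531 in the TMM fit, and 2037 and 6538 for siYAP/TAZ#2 against 4144 and 4100. Upper quartile factors gave medians of 0.12 and log2(TPM + 1) 0.26 and 0.33. With library size alone, 7 members were higher with siYAP/TAZ#2, and 2 of them (FOS, ATF2) passed a log2 change of 1, as they did on log2(TPM + 1) and log2(TPM + 0.1). ATF2 passed narrowly, at 1.01 with library size alone and 1.04 on log2(TPM + 1). The share of all genes that passed this rule in these fits is not given here, so the count is not read as a result about the members.

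In limma on TPM, 1 member (FOSL1) was lower with either combination under both offsets and without a filter. Few genes were lower in these fits: 138 of 16073 with siYAP/TAZ#1 and 176 with siYAP/TAZ#2 on log2(TPM + 1). With the smaller offset they were 145 and 179, and without a filter 100 and 137 of 43458. FOSL2 turned to 0.14 and 0.07 there. FOS between the combinations turned to -0.28 (-0.34 with the smaller offset). For TMM scaled sums per effective length, the treated values were 56.4 and 51.1 for the FOS family, 242 and 230 for the JUN family and 317 and 301 for all members. All lay below the treated sums in TPM. The siCo sums on that scale are not given here, so these values are not to be set against the siCo TPM sums. The cause of these shifts was not tested.

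Between the combinations, 0 members were lower with library size alone, upper quartile factors, no filter, TPM or only the groups compared. In that order, lower genes were 1644 and 1794 of 21581, 1528 of 43210, 62 of 16073 on log2(TPM + 1), and 1413 of 20806. FOSL2 alone was higher with library size alone, DESeq2 or GC offsets, beside 1270 of 21581, 1764 of 16402 and 2468 of 21581 genes. Leaving out single libraries gave 0 to 1 lower and 0 to 3 higher members, beside 1278 to 2840 lower and 1178 to 2287 higher genes. The 3 (FOSL1, FOSL2, JUND) were higher without replicate 1 of siYAP/TAZ#2, where 2287 of 22166 genes were higher. Single libraries also turned 4 small differences: JUNB with siYAP/TAZ#2 ranged from -0.01 to 0.35, JUN between the combinations from -0.33 to 0.01 and JUNB from -0.18 to 0.18, each turned by leaving out that same library. FOSB with siYAP/TAZ#1 ranged from -0.05 (without replicate 1 of its group) to 0.18.

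Deviations of libraries with the same replicate number correlated between -0.153 and 0.208, and those with different numbers between -0.283 and 0.204. Replicate 4 gave 0.193, 0.148 and 0.208 over the pairs of groups, and replicate 2 gave 0.028, -0.073 and -0.153. These values do not settle whether the numbers mark pairs. With a replicate block, JUND was called with siYAP/TAZ#1 (0.45, adjusted p = 0.032 in edgeR), and no other member's call changed. That gave 4 members higher there, beside 3561 of 21581 genes. FOS and FOSB rest on 49 to 204 counts a library, which limits their precision.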
